A study of Mus musculus with 4 samples.

Results

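The genes described here are 8 mouse genes of blood stem cell identity, 7 transcriptional regulators (Hlf, Mecom, Meis1, Nkx2-3, Gata2, Gfi1b and Mllt3) and the receptor gene Procr. They were taken by name from a total of 27998 genes, and all 8 were read from the count matrices at the cells that the authors kept. The cells were lymphoid-primed multipotent progenitors (LMPPs) sorted from the bone marrow of C57BL/6 mice and sequenced in 10x Genomics droplets, with 1 library in each of 4 groups. Control mice kept the gene for RBPJ, the DNA-binding partner of Notch receptors, switched on throughout. The other 3 groups were deficient for RBPJ: uninduced mice were left without it, and the remaining mice had it restored with doxycycline for 3 or for 6 days, by an injection into the abdomen at 2 mg/ml followed by drinking water at 1 mg/ml. The labels attach the doxycycline text to every library, so whether control and uninduced mice received it is not given. The Cre or promoter behind the deletion and the inducible gene, the age of the mice and the number pooled in a library are not given either. With 1 library a group there was no test between groups. The intervals given (95%) cover counting error only, and a difference between 2 libraries cannot be told apart from a difference between mice or preparations.

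LMPPs lie just below the stem cell in the classical tree: they have lost most capacity for platelets and red cells, have gained the cytokine receptor FLT3, and many have begun to transcribe lymphoid genes such as Dntt, which encodes the terminal transferase used in antigen receptor joining. Stem cells are held in their state by a set of regulators that are turned down as cells commit. HLF, MECOM and MEIS1 maintain self-renewal, GATA2 serves stem and early progenitor cells, and PROCR (the endothelial protein C receptor) is a surface marker of the most primitive stem cells.

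The libraries held 2693 control, 2769 uninduced, 1292 3-day and 2129 6-day cells, with medians of 7920, 6774, 7641.5 and 7353 unique molecular identifiers (UMIs, counted RNA molecules) a cell. Between 2 and 17 cell barcodes were shared by any pair of libraries. The induced labels matched Rbpj itself, which stood at 17.8 UMIs per 1000000 (CPM) in control and 11.2 in uninduced cells, and 508 at 3 and 485 at 6 days. Sorted-cell markers were present: after each cell was thinned to 4700 UMIs, a Flt3 UMI was held by 57.2% to 61.8% of cells and a Cd34 UMI by 83.2% to 88.5%, while Il7r, a gene of later lymphoid progenitors, was held by 5.70% to 11.3%. Cells carrying markers of another lineage (at least 3 UMIs from at least 2 marker genes) numbered 119, 139, 60 and 114 in the same order, and they held 2.48% to 3.23% of the 8 genes' UMIs. Markers moved between libraries: the 8 neutrophil markers summed to 258, 1002, 1224 and 832 CPM and the 8 red cell and platelet markers to 8.68, 12.1, 14.8 and 146 CPM, whereas 5 of the 7 basophil and mast cell markers were at 0 in every library.

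The genes are spread over 6 chromosomes of GRCm38 (mm10), the build in the submitters' processing notes. In GENCODE vM21, Hlf lies at chr11:90336536-90390895, Meis1 at chr11:18879817-19018985, Mecom at chr3:29951296-30548008, Mllt3 at chr4:87769925-88033364 and Gfi1b at chr2:28609450-28621982, all on the minus strand. Procr (chr2:155751117-155755471), Nkx2-3 (chr19:43612325-43615892) and Gata2 (chr6:88193891-88207032) lie on the plus strand. Mecom shares its span with 7 other genes, among them the antisense gene Mecomos, and Meis1 with 5, but no other gene overlaps the last 1000 bases of any of the 8, the end that the droplet assay reads. Within the last 500 bases of their coding transcripts, words of 31 bases were shared with another gene for Meis1 alone, 1.21% of its words. Because the study switches RBPJ off and on, the 250 bases before each annotated start (RefSeq, GRCm38.p6, with 11 starts for the 8 genes) were searched on both strands for the core of the RBPJ motif, TGGGAA. It occurred in 3 of these 11 promoters, each of a different gene, against 21.6% of 32851 promoters of the same length. These 3 promoters are shown because they hold it, with each match in capitals, as TGGGAA or as its reverse complement TTCCCA; they are chr11:90390918-90391167 (minus), chr11:19018970-19019219 (minus) and chr19:43612075-43612324 (plus).
Hlf: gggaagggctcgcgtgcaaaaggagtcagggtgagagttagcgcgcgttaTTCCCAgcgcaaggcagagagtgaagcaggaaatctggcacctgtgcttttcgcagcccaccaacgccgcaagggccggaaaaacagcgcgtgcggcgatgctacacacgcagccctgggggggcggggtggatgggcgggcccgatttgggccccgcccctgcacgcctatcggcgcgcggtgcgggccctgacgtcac
Meis1: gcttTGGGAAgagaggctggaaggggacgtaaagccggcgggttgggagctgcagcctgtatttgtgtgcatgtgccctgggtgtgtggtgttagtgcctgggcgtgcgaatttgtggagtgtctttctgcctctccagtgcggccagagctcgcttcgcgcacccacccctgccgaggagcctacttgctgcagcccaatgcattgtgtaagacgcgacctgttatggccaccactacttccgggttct
Nkx2-3: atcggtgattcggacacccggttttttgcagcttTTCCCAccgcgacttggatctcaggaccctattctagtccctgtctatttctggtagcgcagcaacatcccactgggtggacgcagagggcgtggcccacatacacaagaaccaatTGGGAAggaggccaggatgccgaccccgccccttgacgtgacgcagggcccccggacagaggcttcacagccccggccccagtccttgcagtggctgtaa
The match at Hlf begins 200 bases before the start, that at Meis1 246, and the pair at Nkx2-3 216 and 100. The GATA motif AGATAA was in none of the 11 promoters and in 9.99% of all promoters. The MEIS motif TGACAG was in 2, the second promoters of Mecom and of Mllt3, against 15.9% of all promoters. A match is only a run of letters, and the absence of one says nothing of the factor.

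Levels of the 8 genes were first compared between libraries. Summed, they made up 277 CPM (270 to 283) in control and 263 (256 to 270) in uninduced cells, and 224 at 3 and 223 at 6 days. By this sum, taken before thinning, the 2 induced libraries were the lowest, and by counting error they did not overlap the others. The share of thinned cells that held at least 2 of the 8 genes was 27.8% (25.9 to 29.6) in control. It was 22.7% (20.9 to 24.6) in uninduced cells, 19.6% (17.3 to 22.1) at 3 and 21.6% (19.7 to 23.6) at 6 days. At this equal depth the uninduced interval overlapped those of both induced libraries, and only control stood apart. Genes were called different where CPM + 1 differed by at least 1.5-fold with at least 2 CPM in either library. Log2 ratios and their medians are also of CPM + 1, whereas the ratios printed with an interval are of CPM itself.

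Hlf, a bZIP factor nearly restricted to stem and early progenitor cells within blood, was at 66.7 CPM (63.4 to 70.1) in control, 70.8 (67.3 to 74.5) in uninduced, 51.0 (46.8 to 55.5) in 3-day and 50.01 (46.7 to 53.4) in 6-day cells. By this level, taken before thinning, both induced libraries lay below both others. The ratio of 3-day to uninduced was 0.720 (0.651 to 0.795) and that of 6-day to uninduced 0.706 (0.649 to 0.768), neither past the fold of the call. In cells thinned to 4700 UMIs, 22.6%, 20.02%, 18.8% and 18.2% held an Hlf UMI in the order control, uninduced, 3-day, 6-day. Before thinning, which leaves out the cells under 4700 UMIs, these shares were 33.2%, 32.8%, 27.0% and 27.2%. After thinning, the uninduced interval (18.3 to 21.8) overlapped those of 3-day (16.5 to 21.2) and 6-day (16.4 to 20.1) cells. The control interval (20.9 to 24.4) overlapped that of 3-day but not that of 6-day cells.

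Mecom, which encodes the zinc finger factor EVI1 required for long-term stem cells, was at 39.8 CPM in control and 31.3 in uninduced cells, and 22.7 at 3 and 28.5 at 6 days. Here the control library was the highest and its interval (37.3 to 42.4) did not meet that of uninduced cells (28.9 to 33.7). The ratio of uninduced to control was 0.786 (0.710 to 0.869), and that of 3-day to uninduced 0.727 (0.625 to 0.844). Nkx2-3, a homeobox gene, was also highest in control and lowest at 3 days, with 28.5 CPM in control and 22.0 in uninduced cells, and 17.1 at 3 and 24.6 at 6 days. Its ratio of uninduced to control was 0.772 (0.685 to 0.871), and 6-day cells were 1.44-fold (1.21 to 1.72) above 3-day cells.

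Meis1, a homeodomain partner of HOX proteins, hardly varied between the first 3 libraries, with 101 CPM in control, 98.7 in uninduced and 101 in 3-day cells, and was 82.3 (78.1 to 86.6) in 6-day cells. It was the member seen in most cells, with a UMI in 36.2%, 34.3%, 36.1% and 29.8% of thinned cells (55.5%, 49.2%, 52.4% and 45.7% before thinning). Mllt3, a chromatin reader that supports human stem cell maintenance, did not differ beyond counting error between any of the libraries, at 13.3, 11.5, 12.8 and 13.6 CPM. Gata2, a zinc finger factor of stem, mast and megakaryocyte cells, was at 11.5, 12.8, 9.30 and 9.80 CPM, and its ratio to uninduced cells was 0.727 (0.571 to 0.919) at 3 days and 0.766 (0.628 to 0.931) at 6 days.

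Procr rested on 151, 127, 38 and 75 UMIs in the 4 libraries, equal to 6.42, 6.06, 3.57 and 4.30 CPM. Gfi1b, a repressor needed for platelet and red cell development and for stem cell dormancy, rested on 216, 208, 66 and 181 UMIs, or 9.19, 9.93, 6.20 and 10.4 CPM. These low counts were the only ones to pass the fold in the comparisons with uninduced cells: 3-day cells were lower for Procr (0.589, 0.399 to 0.852) and Gfi1b (0.624, 0.466 to 0.827), 2 of 8 genes against 1.58% of all genes lower. After removal of cells marked by other lineages Gfi1b no longer passed, and after thinning to 4700 UMIs Procr no longer passed.

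**Figure D1:**
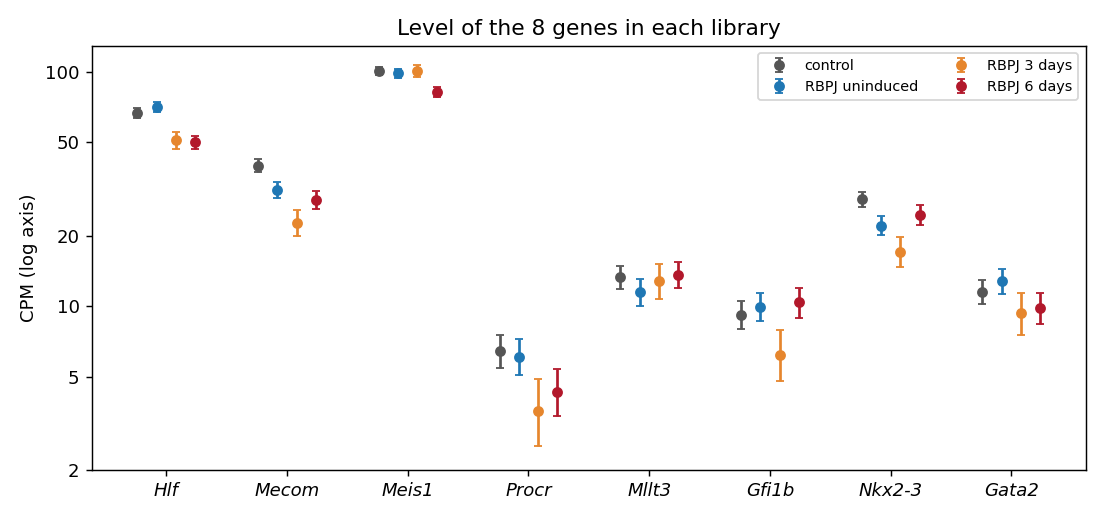
Level of each gene (CPM on a log axis) in the 4 libraries; bars are exact Poisson 95% intervals of the counts. By this level, taken before thinning, Hlf is lower in the 2 induced libraries (51.0 and 50.01) than in control and uninduced cells. Mecom and Nkx2-3 are highest in control, and Mllt3 intervals overlap in all libraries.

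Counts and medians of the 8 genes put these values beside the rest of the transcriptome. Between uninduced and control cells 0 of 8 passed (2.33% of all genes did, in either direction) and the median log2 ratio was -0.05, against -0.08 over all genes. From uninduced to 3-day cells the median was -0.43, against -0.02 over all genes, and 6 of 8 genes were below 0. With cells thinned to 4700 UMIs this median was -0.20. From uninduced to 6-day cells 0 of 8 passed (1.64% of all genes, either direction), with a median of -0.19 against -0.02. From 3-day to 6-day cells 1 of 8 was higher (2.42% of all genes), namely Gfi1b at 1.67-fold (1.26 to 2.25), and the median was 0.15 against -0.00. That Gfi1b call was lost without cells of other lineages and after thinning. These comparisons share libraries, so they are not independent of one another. Set against control, 3-day cells had 3 of 8 genes lower (2.81% of all genes), Mecom at 0.571, Procr at 0.556 and Nkx2-3 at 0.599, and 6-day cells had 0 of 8 (1.45%, either direction).

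Other genes of stem cells were read from lists chosen by function. Of 22 measured regulatory genes of stem cells, mostly transcription factors, Zfp36l2 passed the fold from uninduced to 3-day cells (389 to 236 CPM). It passed again, upward, from 3-day to 6-day cells (386 CPM). Over all genes 1.58% were past the fold downward in the first comparison and 2.42% upward in the second. Zfp36l2 encodes an RNA-binding protein that shortens the life of its target RNAs. Among 7 dormancy genes, Cdkn1a, a cell cycle inhibitor, went from 85.3 to 55.7 CPM at 3 days and stood at 90.5 CPM at 6 days. Txnip, a regulator of glucose uptake, was at 67.0 CPM in 3-day and 41.8 in 6-day cells. No gene of these lists, or of 17 surface genes of stem cells, passed the fold between uninduced and control cells, or between uninduced and 6-day cells. The lymphoid list moved mostly at 6 days, when 3 of 18 measured genes were past the fold above uninduced cells (1.11% of all genes were). These were Il7r (18.5 to 32.4 CPM), Rag1 and Rag2. Over the 4 libraries Rag1 had a mean of only 2.07 CPM, close to the minimum of the call, and Rag2 of 11.8. Ly6d, of the same list, stood at 12.4 CPM in control and 26.1 in uninduced cells, and 12.2 at 3 and 28.5 at 6 days.

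Free RNA was measured in barcodes of 10 to 100 UMIs outside the cells. There the 8 genes summed to 283, 228, 222 and 234 CPM in control, uninduced, 3-day and 6-day libraries, close to the level inside the cells. These are shares of the free RNA, not amounts per barcode. In control they came from 487 UMIs of the 8 genes in 81178 barcodes. In the same order, the remaining libraries held 106, 70 and 262 such UMIs in 31583, 22265 and 65767 barcodes. How many UMIs of a cell came from free RNA was not tested. Neutrophil-marked cells were taken for comparison, but 43.7% of them held a Dntt UMI and 25.2% a Flt3 UMI. Whether they lack the stem cell genes was not tested, so their shares are not a measured background. Of these cells 7.56% (9 of 119 thinned cells) held an Hlf UMI, against 20.4% of the remaining cells. The shares were 4.20% against 13.3% for Mecom, 1.68% against 9.55% for Nkx2-3, and 0.840% against 4.69% for Gata2. Median depths before thinning were 10877 UMIs in the marked and 7324.5 in the remaining cells. For Procr (1.68% against 2.25%), Mllt3 (4.20% against 6.08%) and Gfi1b (2.52% against 3.73%) the intervals overlapped. These shares rest on 2, 5 and 3 marked cells, too few to tell marked from remaining cells.

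Levels also differed between cells of small and large libraries. Of the 8 genes, 7 were higher in cells under 4700 UMIs than in cells of at least 9400 UMIs in all 4 libraries, against 28.1% of all genes. Gfi1b was the exception. The sum of the 8 genes was 552, 512, 428 and 469 CPM in the cells under 4700 UMIs and 214, 175, 172 and 157 CPM in the cells of at least 9400 UMIs, in the order control, uninduced, 3-day, 6-day. These levels in small libraries also lay above the free RNA of the same libraries.

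Hlf was 3.28-fold higher in the cells under 4700 UMIs in control and 4.21-fold in uninduced cells, and 3.23-fold at 3 and 4.67-fold at 6 days. Nkx2-3 was 4.97-, 4.98-, 3.83- and 4.81-fold higher, and Procr 5.24-, 9.54-, 6.96- and 14.2-fold higher on few UMIs (9 to 54 a band). Meis1 (2.02- to 2.73-fold), Mecom (2.15- to 2.61-fold) and Gata2 (2.33- to 4.67-fold) had the same direction in every library with intervals above 1. Mllt3 was 1.12- to 1.59-fold higher, with an interval above 1 in the control library alone. Gfi1b was at 0.503-, 0.837-, 1.12- and 0.524-fold.

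**Figure D2:**
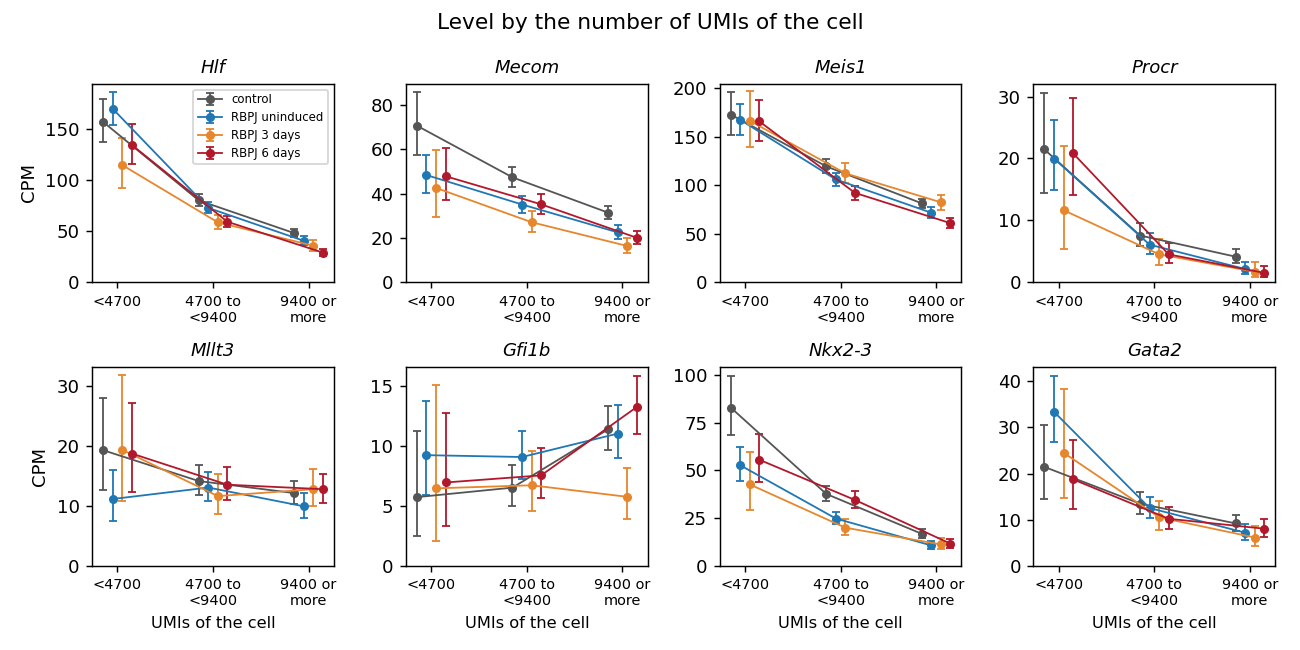
Level of each gene (CPM) in cells of under 4700, 4700 to under 9400 and at least 9400 UMIs, with exact Poisson 95% intervals; lines join the bands of 1 library. In 7 genes every line ends below where it starts, and Gfi1b does not share the pattern.

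Other genes moved with this split. Flt3 was 1.32- to 1.57-fold higher in the cells under 4700 UMIs, Dntt was at 0.446 to 0.530 of its level in the cells of at least 9400 UMIs, and the proliferation gene Mki67 was at 8.45 to 15.3 CPM against 113 to 144 CPM. The part of the cell cycle in the split was not tested. The share of cells under 4700 UMIs was 13.03% in control and 24.4% in uninduced cells, and 15.8% at 3 and 17.6% at 6 days. When each library was given the control library's mix of the 3 depth bands, an alternative chosen after seeing the data, the log2 ratio of uninduced to control turned from 0.09 to -0.14 for Hlf and went from -0.36 to -0.60 for Nkx2-3, which then passed the fold. The ratio of 3-day to uninduced cells for Hlf went from -0.47 to -0.30. With this mix the median log2 ratio of the 8 genes was -0.20 for uninduced over control, -0.27 for 3-day over uninduced and -0.12 for 6-day over uninduced cells, next to -0.05, -0.43 and -0.19 without it.

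By cell cycle, thinned cells were split into a low-cycling class (the third with the fewest UMIs from 30 S phase and 35 G2/M genes, at most 12 UMIs), an S class and a G2/M class. These are ranges of a score: 535 of 7278 cells lay near the lower limit and 341 near the boundary of S and G2/M. The low class held 33.6%, 33.4%, 32.4% and 37.2% of cells and the G2/M class 27.4% to 28.5%. The summed level of the 8 genes in the low class was 345 CPM in control and 301 in uninduced cells, and 254 at 3 and 268 at 6 days. In the S class it was 0.694, 0.727, 0.803 and 0.766 of that, and in the G2/M class 0.792, 0.694, 0.882 and 0.687.

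Nkx2-3 was lower outside the low class. In the S class it stood at 0.459 (0.351 to 0.598), 0.436, 0.425 and 0.498 (0.355 to 0.692) of its level in the low class, in the order control, uninduced, 3-day, 6-day, and all 4 intervals lay below 1. In the G2/M class it stood at 0.631, 0.424, 0.722 and 0.406, with only the 3-day interval reaching 1. Meis1 was also lower in the S class with every interval below 1 (0.634, 0.782, 0.768 and 0.763), and Gata2 stood at 0.497, 0.570, 0.635 and 0.478, with the 3-day interval reaching past 1. Gata2 did not keep this in the G2/M class, where it was at 0.919, 0.737, 1.34 and 0.875.

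Hlf in the G2/M class was 1.02 of its low class level in control and 0.761 in uninduced cells, and 0.807 at 3 and 0.669 at 6 days. Mecom was 0.832, 0.727, 0.775 and 0.719. These ratios are of thinned counts. Before thinning, the same control cells held Hlf at 61.5 CPM (56.2 to 67.2) in the G2/M class and 74.2 (67.0 to 82.0) in the low class. After thinning no Procr UMI was left in 310 G2/M cells at 3 days, which allows up to 0.968% of cells with a UMI at that depth. The same cells held 7 Procr UMIs (1.97 CPM) before thinning. Its other G2/M ratios were 0.817, 0.498 and 0.380 with intervals that reached 1. With thinned counts, the G2/M class was lower than the low class in all 4 libraries for 4 of 8 genes (Mecom, Meis1, Procr and Nkx2-3), against 19.7% of all genes. The S class was lower for 6 of 8 (Hlf, Mecom, Meis1, Mllt3, Nkx2-3 and Gata2), against 22.3%. Gfi1b again differed: in the S class it was at 1.02, 1.03, 1.78 and 2.33 (1.28 to 4.41) times its low class level. Its control, uninduced and 3-day intervals included 1. Rbpj moved with these classes in the induced libraries, at 4.11-fold (3-day) and 5.43-fold (6-day) its low class level in the G2/M class. Its part in the values above was not tested.

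**Figure D3:**
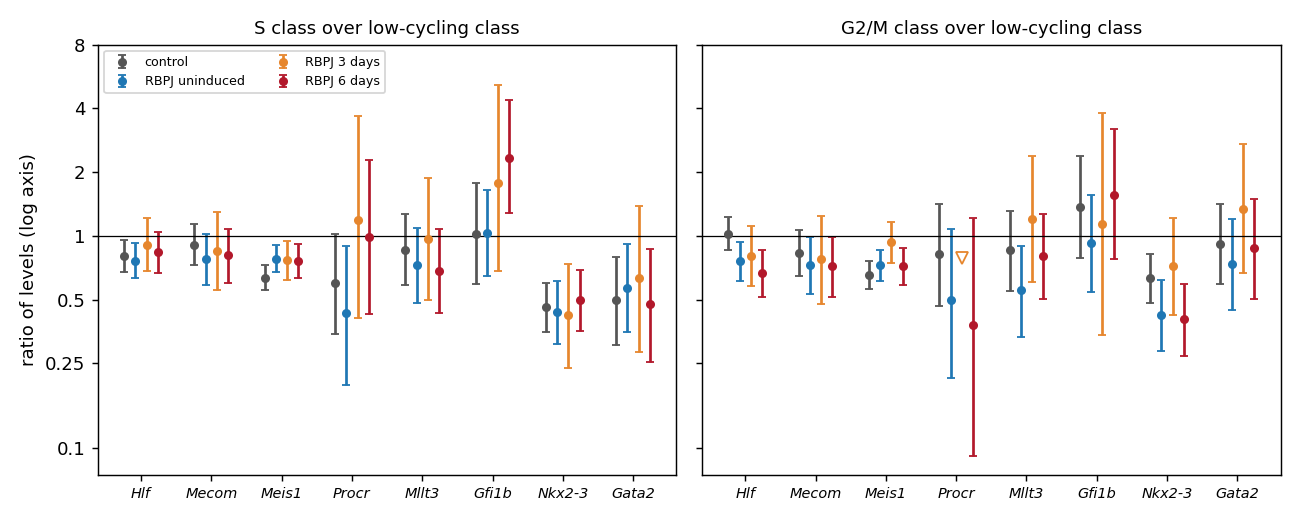
Ratio of each gene's level in the S class (left) and G2/M class (right) to its level in the low-cycling class, on a log axis, with conditional exact 95% intervals; the open triangle marks the upper limit for Procr in 3-day G2/M cells, where it had 0 UMIs after thinning. Nkx2-3 lies at 0.425 to 0.498 in the S class in all 4 libraries. Gfi1b points lie above 1 in that class, but only the 6-day interval excludes 1.

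Induced cells were also divided by whether a Rbpj UMI was detected, which does not show that a cell without one lacks the restored gene. A Rbpj UMI was found in 469 of 1088 thinned 3-day cells (43.1%) and 43.8% of 6-day cells. The free RNA of these libraries held Rbpj at 291 and 285 CPM, from 92 UMIs in 22265 barcodes and 319 UMIs in 65767 barcodes. How many Rbpj UMIs of the cells came from free RNA was not tested. The 8 genes summed to 184 CPM in Rbpj-positive and 253 CPM in Rbpj-negative 6-day cells, a ratio of 0.727 (0.660 to 0.800), and to 205 and 241 CPM in 3-day cells, a ratio of 0.850 (0.753 to 0.958). In uninduced cells, where few cells held a Rbpj UMI, the ratio was 0.878 (0.715 to 1.07), and in control cells it was 0.917 (0.799 to 1.05).

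At 6 days Hlf was at 35.7 CPM in Rbpj-positive and 63.4 CPM in Rbpj-negative cells, a ratio of 0.564 (0.455 to 0.696), and Nkx2-3 at 16.9 and 31.9 CPM, a ratio of 0.530 (0.386 to 0.718). At 3 days the ratio was 0.781 (0.604 to 1.01) for Hlf and 1.21 (0.774 to 1.87) for Nkx2-3. The ratios at 3 and at 6 days were 0.945 and 0.750 for Mecom, 0.871 and 0.852 for Meis1, 0.406 and 0.447 for Procr and 0.597 and 0.869 for Mllt3. Those of Gfi1b (0.420 and 1.43) and Gata2 (1.12 and 0.655) lay on both sides of 1. Of the ratios of these 6 genes only that of Mecom at 6 days had an interval below 1. Within the cycle classes of 6-day cells the summed ratio was 0.865 (0.732 to 1.02) in the low class, 0.766 (0.646 to 0.906) in the S class and 0.706 (0.580 to 0.860) in the G2/M class. Within those of 3-day cells it was 0.946, 0.856 and 0.830, and each interval reached 1. Hes1, a Notch target gene, was also lower in the Rbpj-positive cells of both libraries, at 0.670 (0.492 to 0.906) and 0.688 (0.610 to 0.776).

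Co-detection with Dntt and Flt3 was read in cells thinned to 4700 UMIs. A Dntt UMI was held by 75.4%, 71.4%, 77.8% and 79.7% of cells in control, uninduced, 3-day and 6-day libraries. Both partners were also found in neutrophil-marked cells. There a Dntt UMI was held by 43.7% (76.2% of the remaining cells) and a Flt3 UMI by 25.2% (59.8%). The free RNA held Dntt at 697 to 1060 CPM, which is a share of that RNA and not an amount per cell. Some cells counted as positive may hold RNA that is not their own, and how many was not tested. Hlf was found in 18.1% of Dntt-positive and 36.6% of Dntt-negative control cells, in 15.3% and 31.9% of uninduced cells, in 15.1% and 31.4% of 3-day cells and in 15.8% and 27.5% of 6-day cells. The intervals did not overlap in any library.

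Mecom was found in 12.6% of Dntt-positive and 25.3% of Dntt-negative control cells, 10.8% and 16.7% of uninduced, 9.46% and 14.5% of 3-day and 10.9% and 16.8% of 6-day cells. Its intervals overlapped in the 3-day library alone. Procr was found in 1.93% and 7.12% of control cells, 1.54% and 3.34% of uninduced, 1.06% and 2.48% of 3-day and 1.36% and 3.08% of 6-day cells, with separate intervals in control only. These 3 of 8 genes were lower in Dntt-positive cells in all 4 libraries, as were 9.70% of all genes.

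The other regulators did not keep this direction. Meis1 was found in 34.8% of Dntt-positive and 40.6% of Dntt-negative control cells but in 36.2% and 36.0% of 3-day cells. Nkx2-3 was less frequent in Dntt-positive cells in control (10.4% and 16.1%) and 6-day cells (8.66% and 13.2%) and more frequent in 3-day cells (7.45% and 5.37%). Gfi1b went the other way in 3 libraries: it was found in 4.08% of Dntt-positive and 1.74% of Dntt-negative control cells, 4.75% and 3.17% of uninduced cells, and 3.31% and 0 of 242 3-day cells. That 0 allows up to 1.24% of cells with a UMI at this depth and sets no limit on cells that express the gene. The share of cells with a Gfi1b UMI was also not told apart from that of neutrophil-marked cells. With cells thinned to 3000 UMIs, which keeps more of the small cells, 7 of 8 genes (all but Gfi1b) were lower in Dntt-positive cells in all 4 libraries, against 10.0% of all genes (1001 of 10008).

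Flt3 did not divide the genes in this way. A Flt3 UMI was held by 61.8%, 57.9%, 57.2% and 58.8% of cells, and 0 of 8 genes were lower in Flt3-positive cells in all 4 libraries (6.53% of all genes were). Hlf was found in 21.8% of Flt3-positive and 24.0% of Flt3-negative control cells, 21.3% and 18.3% of uninduced, 18.6% and 18.9% of 3-day and 19.7% and 16.0% of 6-day cells. Meis1 was the 1 gene higher in Flt3-positive cells in all 4 libraries (15.1% of all genes were), from 30.04% against 29.5% at 6 days to 39.9% against 31.1% at 3 days.

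**Figure D4:**
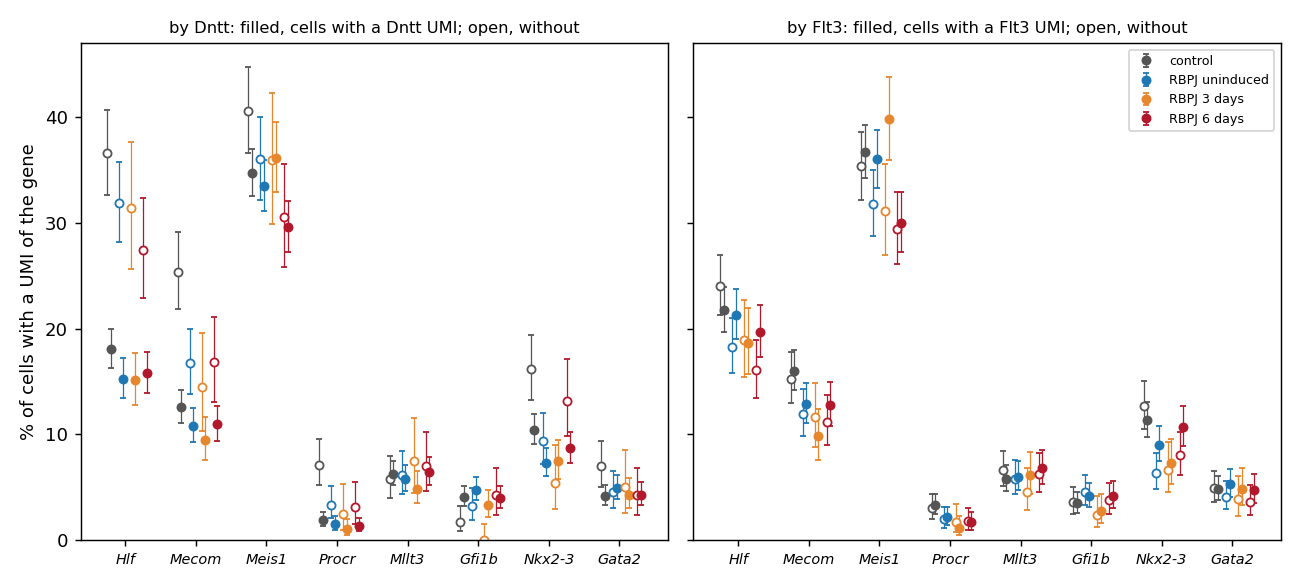
Share of thinned cells with a UMI of each gene among cells with (filled) and without (open) a Dntt UMI (left) or a Flt3 UMI (right), in the 4 libraries, with Clopper-Pearson 95% intervals. Open points stand above filled points for Hlf, Mecom and Procr by Dntt in all 4 libraries, and no such gap appears by Flt3.

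Cells were also ordered by how many of the 8 genes they held. This uses the same detections in the same cells, so it restates the division by Dntt in part. Among control cells holding 0, 1, 2 or at least 3, Dntt was found in 82.4%, 78.3%, 67.1% and 53.5%. The fall from 0 to at least 3 was from 76.6% to 58.0% in uninduced, from 82.8% to 68.4% in 3-day and from 82.0% to 64.4% in 6-day cells. Flt3 over the same classes went from 62.1% to 58.6% in control and 54.0% to 60.9% in uninduced cells, and 55.1% to 66.7% at 3 and 56.3% to 66.3% at 6 days. Cells with Flt3 but without Dntt therefore made up 8.63% of control cells that held none of the 8 genes and 24.2% of those that held at least 3. At 6 days these shares were 6.97% and 21.8%. The low-cycling class made up 25.5% of control cells that held none of the 8 and 40.5% of those that held at least 3, and 32.4% and 55.4% of 6-day cells.

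Among themselves the 8 genes form 28 pairs, and the number of cells holding both was compared with the number that independent detection within each library gives. Hlf and Mecom met in 310 cells where 196 were expected, a ratio of 1.58 (1.41 to 1.77). Procr had the highest ratios, 2.61 with Gata2 (20 cells, 1.60 to 4.04), 2.60 with Nkx2-3 (42 cells, 1.87 to 3.51), 2.07 with Hlf (70 cells) and 1.70 with Mecom (38 cells). Hlf with Gata2, Mecom with Nkx2-3 and Hlf with Nkx2-3 stood at 1.61, 1.57 and 1.56. Each of these 8 pairs was above expectation in all 4 libraries.

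Meis1 pairs were nearer to 1 (1.17 with Hlf, 1.18 with Mecom, 1.19 with Nkx2-3). Gfi1b was met with Hlf at 0.990, Mecom at 0.956, Meis1 at 0.940, Procr at 0.825 and Nkx2-3 at 0.629, all with intervals that include 1. Its ratio was above 1 with Mllt3 (1.40, 23 cells) and Gata2 (1.36, 17 cells), also within counting error of 1. In cells marked by other lineages Gfi1b held 10.6%, 11.1%, 3.03% and 16.0% of its UMIs. In the control, uninduced and 6-day libraries these shares lay above the range given earlier for the 8 genes together. At 3 days the share lay within that range. In the 6-day library 8 cells with red cell and platelet markers held 10.5% of Gfi1b UMIs, at 121 CPM. Without cells of other lineages Gfi1b was at 8.81, 9.54, 6.37 and 9.36 CPM.

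**Figure D5:**
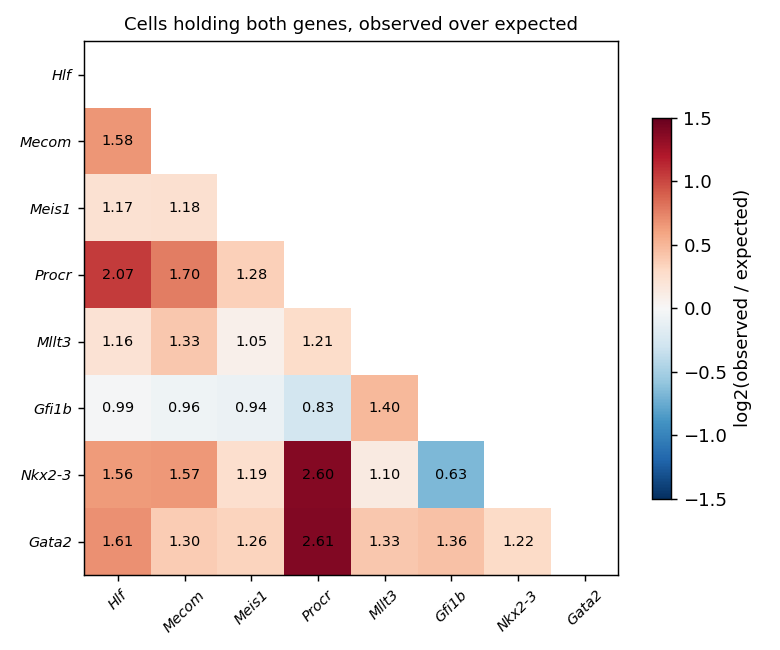
Number of thinned cells holding both genes of a pair divided by the number expected from independent detection within each library, summed over the 4 libraries; color is the log2 of that ratio. The Procr pairs with Gata2 (2.61), Nkx2-3 (2.60) and Hlf (2.07) are the highest, and 5 of the 7 Gfi1b pairs are below 1.

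Genes that accompany the 8 were found by comparing cells that held at least 2 of them with cells that held none, after leaving out cells of other lineages, a step chosen after seeing neutrophil genes in this comparison. There were 642 and 772 such cells in control and 466 and 740 in uninduced cells, and 207 and 408 at 3 and 374 and 682 at 6 days. The members themselves were left out, and of 4854 genes 0.577% passed 1.5-fold upward and 0.227% downward in all 4 libraries. Car2, a carbonic anhydrase, led: it was at 406 CPM in cells holding at least 2 and 164 in cells holding none in control and 388 and 161 in uninduced cells, and 462 and 169 at 3 and 333 and 139 at 6 days. Ifitm1, an interferon-induced membrane protein, was at 539 and 216 CPM in control and 415 and 192 at 6 days. Slc16a11, Stxbp4, Ltb, Cd63, Ikzf2 (a factor of the Ikaros family), Myct1 and Rgs1 were among the 10 leading genes. The remaining one, Pf4, met the minimum through its mean of 31.9 CPM over all cells, but in the cells compared it was at only 2.74 to 6.17 CPM with at least 2 of the 8 and 0.288 to 1.10 CPM with none.

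At the other end, Il7r was at 8.29 and 39.1 CPM in control and 8.22 and 25.6 in uninduced cells, and 6.17 and 18.3 at 3 and 13.1 and 37.7 at 6 days. Cox6a2, Cst7, Clec12a, Irf8 (a regulator of dendritic and monocyte fate), Cnn3, Tmem108, Ctsg and Dntt were among the other lowest. Most genes of the stem cell lists were higher in all 4 libraries in cells holding at least 2 of the 8. These were 15 of 22 measured regulatory genes, 14 of 17 surface genes and 5 of 7 dormancy genes, against 16.9% of all genes. Those past 1.5-fold in all 4 included Ly6a (108 and 60.6 CPM in control), Pdzk1ip1 (14.9 and 2.48) and Ifitm1. Of 18 lymphoid genes 8 were lower in all 4 libraries, against 10.7% of all genes, and those past 1.5-fold included Rag2, Il7r, Ly6d, Blnk and Dntt. S phase genes were lower in 23 of 30 cases and G2/M genes in 2 of 35.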

How the data were processed

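Cells were LMPPs in 4 droplet libraries, 1 per group. The authors deposited whole UMI counts per gene and barcode, and a table of log2 values per library that was used here only to list the cells; multiplied back by 1 factor per cell, its log2 values gave the deposited counts in 50 checked cells a library. Seurat and the mm10 build come, per the submitters' processing notes, with no version. The aligner, the annotation and whether counting used strand are not given in the sources used here. No doublet caller was run, and the sources do not say how doublets were treated.

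Counts were summed over cells and scaled to CPM. Printed ratios are of CPM; calls (1.5-fold, with 2 CPM in either library), log2 ratios and medians are of CPM + 1. Thinning drew 4700 UMIs a cell without replacement (seed 29), leaving out 1605 of 8883 cells (351 control, 676 uninduced, 204 at 3 days and 374 at 6 days). Intervals are exact Poisson, conditional exact or Clopper-Pearson, and cover counting error only. Scripts (Python 3.11.15, scipy 1.17.1; edgeR 4.0.16 and DESeq2 1.42.0 for scaling only) were tested on simulated data. A UMI counts a transcript end, so levels are compared between cells, not between genes. Named genes beyond the 8 were the most changed of each list (up to 3 each way past 1.5-fold) and the 10 highest and lowest accompanying genes of at least 20 CPM over all cells; some genes that this rule names are not reported here. The 8 genes and all lists were chosen with earlier results of these data known. Alternatives were other scalings, pseudocounts, minimums, depths, cycle classes and cell sets. No sample values outside these libraries were used.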

Additional observations from a re-analysis of the deposited data

Results flagged for a closer look

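Barcodes outside the cells were not part of the comparisons, and they held the 8 genes above the limit that a count of 0 allows in every library. The summed level there was 283 CPM in control, 228 CPM in uninduced, 222 CPM in 3-day and 234 CPM in 6-day libraries, from 487, 106, 70 and 262 UMIs. Mecom stood at 15.7, 15.1, 22.2 and 18.8 CPM outside the cells, on only 27, 7, 7 and 21 UMIs. Inside them it stood at 39.8, 31.3, 22.7 and 28.5 CPM, which at 3 days was nearly the level outside. Procr stood at 7.55, 6.45, 9.50 and 8.94 CPM outside, on 13, 3, 3 and 10 UMIs. Whether these levels differ from those inside the cells was not tested.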

How the results depend on the processing

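No paired analysis was possible because only 1 library was made per group. Nothing called reversed its direction. The count of genes past 1.5-fold between uninduced and control cells, 0 as reported, was 2 with cells thinned to 4700 UMIs and 2 with the control mix of cycle classes (Procr and Nkx2-3 in both), and 1 with the control mix of cell depths. The mix of cycle classes also used cells thinned to 4700 UMIs, so the effect of the classes alone was not tested. From uninduced to 3-day cells the count of 2 became 0 with a minimum of 10 CPM, which leaves Procr and Gfi1b unmeasured, and 1 in each of 6 settings: without cells of other lineages, thinned to 4700 or to 3000 UMIs, each cell scaled to the same total, and the control mixes of cycle classes and of depths. From 3-day to 6-day cells the count of 1 became 0 without cells of other lineages, thinned to 4700 UMIs and thinned to 3000 UMIs. The number of genes lower in Dntt-positive cells, 3, was 7 at 3000 UMIs. The median of the 8 genes kept its sign from uninduced to 3-day (-0.49 to -0.20), from uninduced to 6-day (-0.24 to -0.12) and from 3-day to 6-day cells (0.11 to 0.23) in every alternative run; between uninduced and control it ran from -0.20 to 0.12. The control mix of depths and the group comparisons at 3000 UMIs were chosen after seeing the data. Where not stated, the cause of a shift was not tested. Procr and Gfi1b, on 38 and 66 UMIs in the 3-day library, are the values that depth limits most.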
